A study of Mus musculus with 6 samples.

Results

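Laminin chains are the subject here, as the genes Lama1, Lama2, Lama3, Lama4, Lama5, Lamb1, Lamb2, Lamb3 and Lamc1, chosen by symbol. Of these 9 genes, 8 were found among the 28293 genes listed in the count tables. Lama1 has no row in them and no value is given for it. Lamc3, another gamma chain gene, is given beside them. The count tables come from RNA-seq of a fibroblast cell line of mouse dermis, with 3 libraries of the genotype Lap2alpha KO (KO) and 3 wild-type libraries (WT). Cells of both groups were kept in DMEM containing 10% fetal calf serum, penicillin and streptomycin, and poly(A) RNA was made into directional libraries. LAP2alpha, the soluble product of the gene Tmpo, binds A-type lamins, nuclear proteins unrelated to laminins despite the similar name. Whether libraries of 1 group came from different cultures, or a genotype from 1 clone, is not in the labels, so p-values measure the spread between these libraries, and a difference between lines cannot be told apart from the loss of LAP2alpha.

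Laminins are large secreted proteins of basement membranes, the thin matrix sheets under epithelia and around muscle, fat, nerve and vessel cells. Each is a trimer of an alpha, a beta and a gamma chain joined in a coiled coil, and it is named by its chain numbers, so laminin 411 holds the chains encoded by Lama4, Lamb1 and Lamc1. The beta and gamma chains pair inside the cell and wait for an alpha chain, which is needed for secretion and whose end carries most of the binding sites for integrins and dystroglycan. In skin, laminins with the Lama3 chain anchor the epidermis, and fibroblasts and vessels of the dermis supply other laminins.

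The libraries held 25768678 to 27281473 counts in KO and 22159339 to 26553616 counts in WT. Libraries of the same group had a Pearson correlation of 0.993 to 0.996 over log2 CPM (counts scaled to a library total of 1000000), and a KO with a WT library one of 0.912 to 0.918. Tmpo, which encodes all LAP2 isoforms, averaged 129 ± 6.81 CPM in KO and 252 ± 2.65 CPM in WT (SD, n = 3 each), which does not measure the alpha isoform on its own. All 10 fibroblast markers looked up were tested, and 9 were higher and 1, Thy1, was lower in KO. Of all tested genes 37.7% were higher and 37.5% lower in KO. The summed level of the 10 fibroblast markers was 22720 to 24120 CPM in KO and 5836 to 6228 CPM in WT.

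Of the 8 chains with a row, 6 passed the filter on low counts, and all 6 differed between KO and WT, with Lama4, Lama5, Lamb2 and Lamc1 higher and Lama2 and Lamb1 lower in KO. A gene is called here when its adjusted p in edgeR's quasi-likelihood test was under 0.05, and 75.1% of the 15081 tested genes were called, 37.7% higher and 37.5% lower in KO. The libraries of the 2 groups lay apart for each of the 6 chains, as they did for 76.8% of tested genes, so neither count sets the laminins apart. The alpha chains changed by more than the beta and gamma chains. The absolute log2 fold change of Lama4 was reached by 1.12% of tested genes, that of Lama5 by 3.89% and that of Lama2 by 4.58%. For Lamb2, Lamb1 and Lamc1 these shares were 39.0%, 70.2% and 76.6%. The median log2 fold change of the 6 chains was 0.51, against 0.01 for all tested genes.

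**Figure D1:**
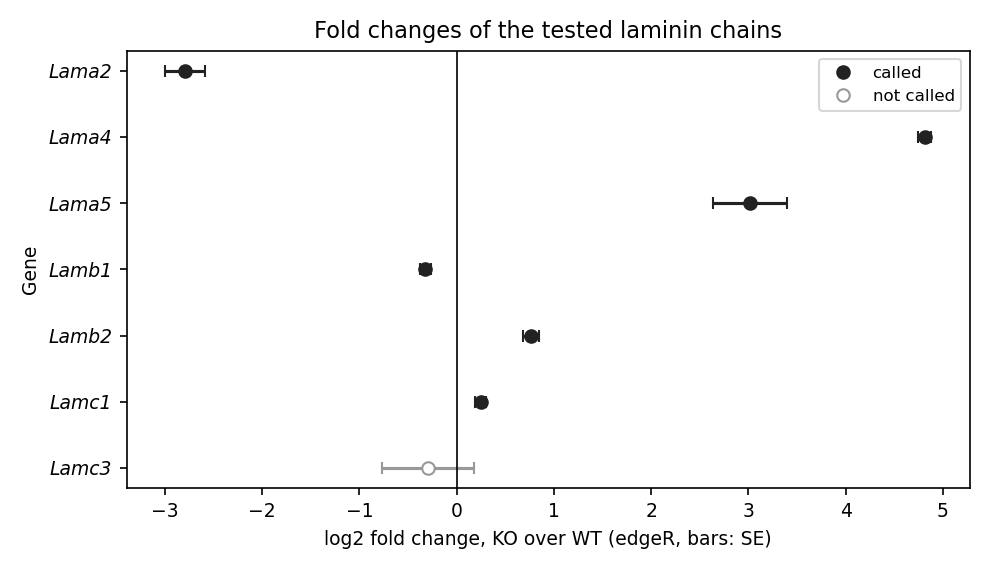
Log2 fold change of KO over WT for the 6 tested chains and for Lamc3, with bars for the SE of the edgeR fit; filled points were called and the open point was not. The alpha chains lie farthest from 0, at 4.81 for Lama4, 3.02 for Lama5 and −2.79 for Lama2, while Lamb1, Lamb2 and Lamc1 lie between −0.32 and 0.76.

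Lama4 encodes a laminin alpha chain found around vessels, muscle, fat and nerve. Its longest coding sequence in GENCODE M21 has 1816 codons, against 3118 for Lama2, 3330 for Lama3 and 3718 for Lama5. It lacks the long arm with the N-terminal domain through which some other laminins polymerise. Lama3 has 2 coding transcripts, and only the longest coding sequence of each gene was compared. The gene (ENSMUSG00000019846) lies on chromosome 10 at 38965515 to 39110188 of GRCm38, plus strand. Lama4 stood at 90.2, 88.7 and 86.0 CPM in the KO libraries and at 3.11, 2.86 and 2.96 CPM in the WT libraries. Every KO library was far above every WT library, and the spread within each group was small beside the gap. The log2 fold change was 4.81 (SE 0.070, edgeR adjusted p = 3.9e-11), or 28.1-fold, and it ranged from 4.78 to 4.89 over 15 alternative settings.

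Lama5 encodes the longest alpha chain, which is widespread in adult epithelial and vessel basement membranes. Lama5 (ENSMUSG00000015647) lies on chromosome 2 at 180176373 to 180225859, minus strand. Lama5 stood at 1.91, 2.07 and 2.76 CPM in KO and at 0.135, 0.151 and 0.487 CPM in WT. The WT values rest on 3, 4 and 12 reads, so they are poorly determined, but all 3 KO libraries, with 52, 55 and 71 reads, were higher. The log2 fold change was 3.02 (SE 0.378, edgeR adjusted p = 3.4e-05). Without WT replicate 3, which holds most of the WT reads, it was 3.82.

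Lama2 moved the other way. It encodes the alpha chain of the laminins around muscle fibres and Schwann cells, and its loss causes a congenital muscular dystrophy. Lama2 (ENSMUSG00000019899) lies on chromosome 10 at 26980036 to 27619758, minus strand, and 3.86% of its exonic bases lie opposite the gene model Gm48084. Lama2 stood at 0.770, 0.603 and 0.582 CPM in KO and at 3.52, 4.71 and 4.70 CPM in WT. All KO libraries were below all WT libraries, from 15 to 21 reads against 78 to 125. The gene fell 6.94-fold in KO (−2.79 on the log2 scale, SE 0.205, adjusted p = 5.5e-07 in edgeR).

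The promoters of the alpha chains that moved in opposite directions are shown because their base content differs widely. Each is the RefSeq window of GRCm38.p6 from 250 bases before to 50 after an annotated start, written 5′ to 3′ on the gene's strand, and capitals mark the GC box GGGCGG on either strand. Of the 9 chains, 5 have an entry in that table, and Lama4 is among the 4 without one.
Lama5 at chr2:180225810-180226109, minus strand: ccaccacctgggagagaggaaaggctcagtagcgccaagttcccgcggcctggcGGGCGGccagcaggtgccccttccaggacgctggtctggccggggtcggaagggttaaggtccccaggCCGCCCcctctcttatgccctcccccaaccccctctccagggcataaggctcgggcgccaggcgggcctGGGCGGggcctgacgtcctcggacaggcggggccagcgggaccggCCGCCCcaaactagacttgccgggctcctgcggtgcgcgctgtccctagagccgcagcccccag
Lama2 at chr10:27616893-27617192, minus strand: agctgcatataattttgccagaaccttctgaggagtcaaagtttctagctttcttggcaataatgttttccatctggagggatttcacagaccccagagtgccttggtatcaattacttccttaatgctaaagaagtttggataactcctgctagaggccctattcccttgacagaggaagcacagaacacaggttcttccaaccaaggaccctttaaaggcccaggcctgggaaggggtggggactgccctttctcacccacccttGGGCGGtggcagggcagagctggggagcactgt
The Lama5 window holds 4 GC boxes, 24 CpG dinucleotides and 72.7% G and C. The Lama2 window holds 1 GC box, 1 CpG and 50.3% G and C. Over all 32851 promoter windows the median is 7 CpG, and 35.7% hold a GC box on either strand. Neither window held the letters CCAAT on either strand, which 37.4% of all windows hold. The TATA box TATAAA, found in 13.6% of all windows, and the AP-1 site TGANTCA, found in 7.81%, were not in them either. These are matches of letters and not measured binding.

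Lama3, whose product is part of the laminin that anchors the epidermis, was near the limit of counting. It had 4, 3 and 1 reads in KO and 0, 0 and 4 reads in WT. A count of 0 allows a level of up to 0.135 CPM in WT replicate 1 and 0.113 CPM in WT replicate 2. WT replicate 3, at 0.162 CPM, lay above KO replicate 1, at 0.147 CPM. So the groups overlap and no difference was detectable at this depth. The ratio of summed counts, KO over WT, was 1.84 with an exact 95% binomial interval of 0.494 to 8.37. Floors and intervals cover counting error only. In the fit without a filter the log2 fold change was 0.73 (edgeR adjusted p = 0.57). Lama3 (ENSMUSG00000024421) lies on chromosome 18 at 12333819 to 12583013, plus strand, with 1.83% of its exonic bases opposite the gene model Gm29200.

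Among the beta chains, Lamb2 rose and Lamb1 fell, both by less than the alpha chains. Lamb1 encodes the beta chain of most early and widespread laminins, and Lamb2 the one that replaces it at the neuromuscular junction, the kidney filter and many mature vessels. Lamb2 stood at 204, 222 and 249 CPM in KO and at 112, 131 and 134 CPM in WT, with no overlap. Its log2 fold change was 0.76 (SE 0.087, edgeR adjusted p = 1.6e-05). Lamb1 stood at 204, 203 and 214 CPM in KO and at 232, 250 and 255 CPM in WT. The gap between the highest KO and the lowest WT library was small beside that of Lama4, and the change was −0.32 on the log2 scale (SE 0.054, edgeR adjusted p = 0.00029). Lamb1 (ENSMUSG00000002900) lies on chromosome 12 at 31265234 to 31329644 and Lamb2 (ENSMUSG00000052911) on chromosome 9 at 108479736 to 108490530, plus strand in each case.

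Lamb3, a beta chain of the epidermis, had 5, 6 and 4 reads in KO and 2, 1 and 3 reads in WT. It was too low to pass the filter. The KO values, 0.155 to 0.226 CPM, lay above the WT values, 0.038 to 0.122 CPM. Groups also lay apart for 76.8% of tested genes. The ratio of summed counts, KO over WT, was 2.31 with an exact 95% binomial interval of 0.845 to 7.25. Without a filter the edgeR adjusted p = 0.30, so no difference was called at this depth. Lamb3 (ENSMUSG00000026639) lies on chromosome 1 at 193207699 to 193343878, plus strand.

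The windows at the starts of Lamb1 and Lamb2 are shown in the same way, because these beta chains substitute for each other and moved in opposite directions. Capitals mark GC boxes and, in Lamb1, also the letters CCAAT.
Lamb1 at chr12:31265043-31265342, plus strand: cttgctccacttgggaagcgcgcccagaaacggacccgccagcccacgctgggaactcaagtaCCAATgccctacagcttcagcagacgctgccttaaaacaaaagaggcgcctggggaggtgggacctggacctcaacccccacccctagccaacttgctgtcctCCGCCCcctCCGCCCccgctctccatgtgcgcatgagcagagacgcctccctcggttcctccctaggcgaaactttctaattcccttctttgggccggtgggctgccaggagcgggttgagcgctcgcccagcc
Lamb2 at chr9:108479612-108479911, plus strand: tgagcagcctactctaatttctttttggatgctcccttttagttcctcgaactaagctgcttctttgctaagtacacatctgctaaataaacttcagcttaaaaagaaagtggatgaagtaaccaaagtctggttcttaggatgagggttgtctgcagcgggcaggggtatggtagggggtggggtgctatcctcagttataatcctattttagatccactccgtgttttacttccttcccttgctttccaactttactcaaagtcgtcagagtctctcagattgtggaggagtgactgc
The Lamb1 window holds 2 GC boxes, 1 CCAAT, 18 CpG and 63.7% G and C. The Lamb2 window holds none of the 4 motifs searched, with 4 CpG and 44.0% G and C. Of the 4 windows shown, those of Lama5 and Lamb2, which rose, have the highest and the lowest G and C share. A relation between base content and direction of change was not tested.

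Lamc1 encodes the gamma chain of nearly all laminins. It stood at 258, 262 and 275 CPM in KO and at 199, 211 and 225 CPM in WT. The groups did not overlap, but the change was the smallest of the 6 chains, 0.25 on the log2 scale (SE 0.057, adjusted p = 0.0024 in edgeR). Lamc1 (ENSMUSG00000026478) occupies the minus strand of chromosome 1 from 153218922 to 153332786. Lamc3 (ENSMUSG00000026840), a gamma chain of a few tissues, had 4 to 15 reads in KO and 6 to 12 in WT and was not called, at −0.30 on the log2 scale (SE 0.474, adjusted p = 0.58 in edgeR). For Lamc3, 6.27% of the exonic bases lie opposite the gene model Gm13441.

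To compare chains with each other, counts were scaled to reads per kilobase of exon per 1000000 counts (RPKM), using every annotated exonic base of a gene as its length. In KO the order was Lamb2 at 37.0 ± 3.67, Lamc1 at 32.1 ± 1.09, Lamb1 at 20.9 ± 0.589, Lama4 at 7.32 ± 0.178, Lama5 at 0.197 ± 0.039, Lama2 at 0.040 ± 0.0063, Lamb3 at 0.028 ± 0.0054 and Lama3 at 0.0093 ± 0.0051 RPKM (SD, n = 3). In KO, neighbours in this order had separate library values. In WT the order was Lamc1 at 25.6 ± 1.54, Lamb1 at 24.7 ± 1.23, Lamb2 at 20.7 ± 2.01, Lama2 at 0.264 ± 0.042, Lama4 at 0.247 ± 0.011, Lama5 at 0.023 ± 0.017, Lamb3 at 0.013 ± 0.0064 and Lama3 at 0.0050 ± 0.0087 RPKM (SD, n = 3). There the values of Lamc1 and Lamb1 overlapped, as did those of Lama2 and Lama4, of Lama5 and Lamb3, and of Lamb3 and Lama3. Lamb1, Lamb2 and Lamc1 lay between 18.4 and 40.9 RPKM in every library, and the alpha chains lay far below them in WT.

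**Figure D2:**
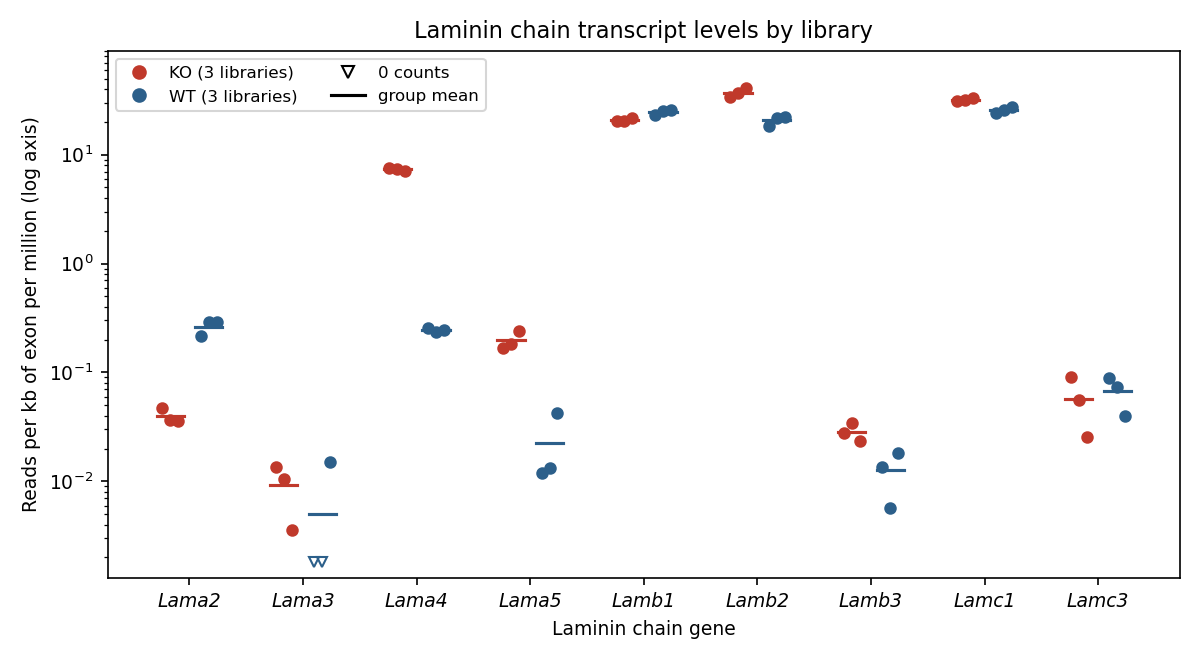
Length-scaled level of each laminin chain gene, in RPKM on a log axis, in the 3 KO libraries (red, left) and the 3 WT libraries (blue, right), with lines at group means and open triangles for libraries with 0 counts. Lama4 sits at 7.13 to 7.48 in KO and 0.237 to 0.258 in WT, while Lamb1, Lamb2 and Lamc1 lie between 18.4 and 40.9 in all libraries.

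The alpha chain RNA was made up differently in the groups. Lama4 took 96.7 ± 0.464% of the summed alpha chain level in KO and 46.2 ± 6.13% in WT, and Lama2 took 0.527 ± 0.074% in KO and 48.9 ± 4.56% in WT (SD, n = 3). So KO cells held almost only Lama4 among alpha chain transcripts with a row, and WT cells held Lama4 and Lama2 in similar parts. With the longest coding transcript as length, Lama4 took 51.1 ± 5.70% and Lama2 46.1 ± 4.67% in WT, the opposite order. The summed alpha chain level was 7.57 ± 0.150 RPKM in KO and 0.538 ± 0.053 RPKM in WT (SD, n = 3). Lama5 took 2.61 ± 0.577% in KO and 4.04 ± 2.76% in WT, with overlapping values. Although Lama5 rose as a gene, its share of the alpha chains did not differ beyond the spread (exact two-sided permutation p = 0.50). For Lama4 and Lama2 the exact two-sided permutation p = 0.10, the smallest that 3 against 3 libraries allow, and adjusted over the 17 measures tested in this way the permutation p = 0.14.

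The beta chains also shifted, toward Lamb2. Lamb2 took 62.0, 64.0 and 65.5% of the summed beta chain level in KO and 44.0, 46.2 and 46.1% in WT. Nearly all the rest was Lamb1, and Lamb3 took at most 0.060% in any library. The ratio of Lamb1 to Lamb2 was 0.567 ± 0.043 in KO and 1.20 ± 0.062 in WT (SD, n = 3), without overlap (exact two-sided permutation p = 0.10, the smallest possible, and 0.14 adjusted). The length matters for this ratio. With the longest coding transcript as length it was 0.899 ± 0.068 in KO and 1.91 ± 0.098 in WT, which leaves the difference in place and brings the chains close to equal in KO.

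**Figure D3:**
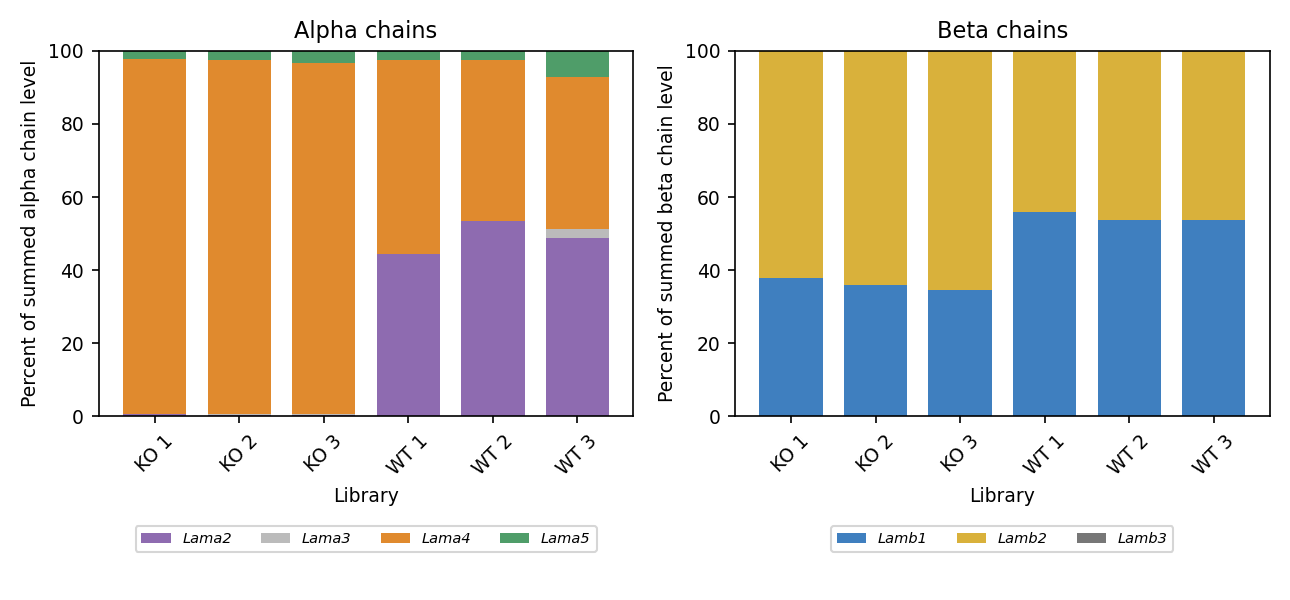
Share of each alpha chain (left) and beta chain (right) in the summed length-scaled level of its class, in percent, as 1 stacked bar per library with KO libraries first. Lama4 fills 96.2 to 97.0% of the alpha bars in KO and 41.5 to 53.2% in WT, and Lamb2 fills 62.0 to 65.5% of the beta bars in KO and 44.0 to 46.2% in WT.

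Set against Lamc1, the gamma chain that most of the trimers share, the summed alpha chains came to 24.7, 23.9 and 22.3% of its level in KO and to 2.01, 2.11 and 2.17% in WT. The summed beta chains stood above Lamc1 in both groups, at 181 ± 6.95% of its level in KO and 177 ± 5.60% in WT (SD, n = 3), with overlapping values (exact two-sided permutation p = 0.60). Alpha chain transcripts were therefore the scarce class in KO and in WT, and scarcer in WT. With the longest coding transcript as length, the alpha share was 42.8 ± 2.38% in KO and 3.49 ± 0.065% in WT. Protein, its secretion and laminin supplied by serum were not measured.

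Which laminin trimers have transcripts for all their chains was read from the lowest of the 3 chain levels. Of 13 known trimers looked up, 11 have a row for every chain, and the 2 others, laminins 111 and 121, need Lama1. At a group mean of at least 1 RPKM for every chain, 2 trimers qualified in KO, laminins 411 and 421, and 0 qualified in WT. The same counts were obtained at 0.5 and at 5 RPKM. Both levels lie between the highest WT value of a lowest chain, 0.288 RPKM, and Lama4 in KO, at 7.13 RPKM or more. They could therefore not change the counts, and a level below the WT values was not tried. In both groups an alpha chain was the least abundant chain of every trimer with Lamc1.

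Laminins 411 and 421 had Lama4 as their lowest chain, at 7.48, 7.35 and 7.13 RPKM in KO and 0.258, 0.237 and 0.245 RPKM in WT. Laminins 211 and 221 had Lama2, at 0.036 to 0.047 RPKM in KO and 0.215 to 0.288 RPKM in WT. In WT, laminins 211, 221, 411 and 421 thus had about the same lowest level. Laminins 511 and 521 had Lama5, at 0.167 to 0.242 RPKM in KO and 0.012 to 0.043 RPKM in WT. Laminins 311 and 321 had Lama3, at 0.0093 RPKM in KO and 0.0050 RPKM in WT on average. The gamma3 laminins 213, 423 and 523 averaged at most 0.068 RPKM for their lowest chain in either group.

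**Figure D4:**
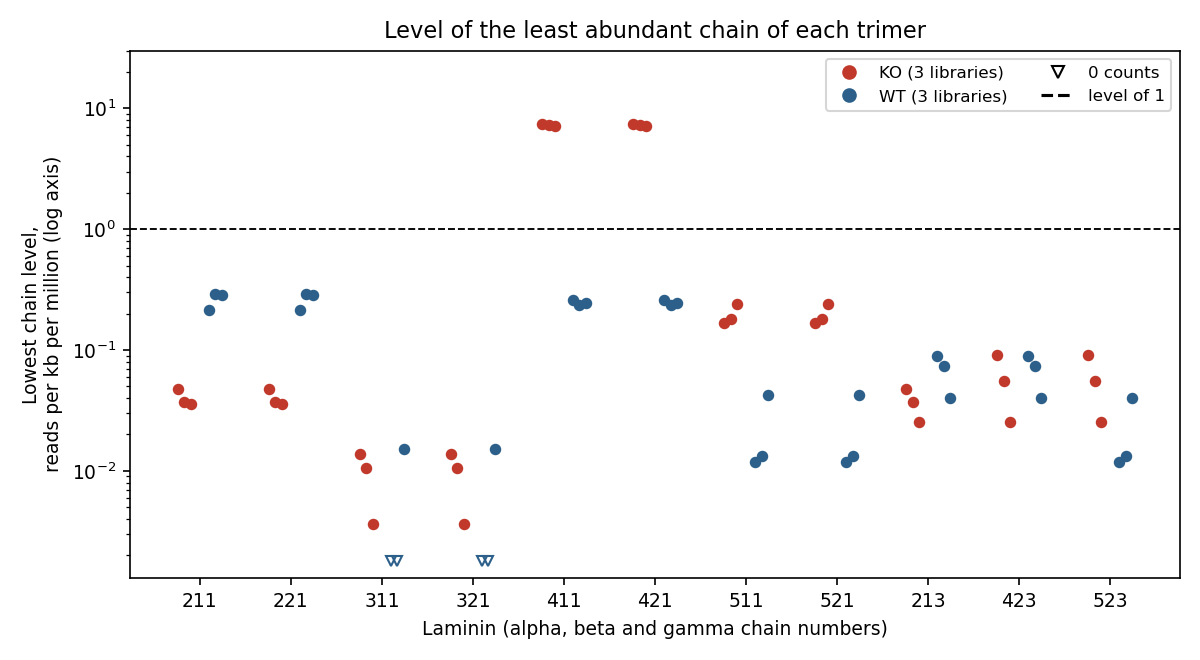
Level of the least abundant chain of each of 11 laminin trimers, in RPKM on a log axis, in 3 KO libraries (red) and 3 WT libraries (blue), with open triangles at 0 counts and a dashed line at 1. Only laminins 411 and 421 in KO, at 7.13 to 7.48, lie above the line, and the highest WT value is 0.288.

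Laminin chains are also made by other cells of skin, so markers of such cells were looked up. Of 5 pericyte and smooth muscle markers, 3 were tested and all 3 were called higher in KO, as were 37.7% of all tested genes. Their summed level was 45.2 to 48.4 CPM in KO and 6.86 to 9.57 CPM in WT, most of it Notch3, a receptor of mural cells, which averaged 41.1 ± 2.18 CPM in KO and 7.24 ± 1.17 CPM in WT (SD, n = 3). Rgs5, a pericyte gene, had 57, 49 and 32 reads in KO and 0, 0 and 1 reads in WT (edgeR adjusted p = 3e-06). Des, which encodes the muscle filament desmin, rose to 2.93 ± 0.062 CPM in KO, against 0.607 ± 0.110 CPM in WT. Myh11 and Cspg4, the untested markers of the list, averaged 0.150 ± 0.061 and 0.381 ± 0.235 CPM in KO and 0.108 ± 0.016 and 0.229 ± 0.095 CPM in WT. The part of these markers in the rise of Lama4 was not tested, and in bulk RNA fewer cells of a type and less RNA per cell cannot be told apart.

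The other marker lists were low. The 5 endothelial markers summed to 0.233 to 0.880 CPM in KO and 1.30 to 1.47 CPM in WT, with Cdh5 called lower and Kdr under 0.1 CPM in every library. Of 7 keratinocyte and epithelial markers 6 have a row, and they summed to 1.59 to 1.91 CPM in KO and 1.94 to 2.80 CPM in WT, with Krt14, Krt18 and Epcam under 0.1 CPM in every library. Adipocyte markers summed to at most 0.155 CPM in KO and 0.135 CPM in WT, with rows for 2 of 4. Immune markers summed to 0.550 to 1.36 CPM in KO and 0.677 to 0.689 CPM in WT, with rows for 2 of 3 and Ptprc under 0.1 CPM in every library. None of the 3 skeletal muscle markers has a row.

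Receptors that bind laminins went both ways. Of 11 looked up, 9 were tested and all 9 were called, 4 higher and 5 lower, with a median log2 fold change of −0.45. Among all tested genes 75.1% were called, 37.7% higher and 37.5% lower in KO. Itga3, which pairs with the integrin beta1 chain to bind laminins of epithelia, averaged 52.4 ± 3.10 CPM in KO and 178 ± 13.2 CPM in WT (SD, n = 3), a change of −1.84 on the log2 scale (SE 0.070, adjusted p = 5.5e-09 in edgeR). Itga6, another laminin-binding integrin alpha chain, fell by 1.12 on the log2 scale. Itgb4, which pairs with it in the hemidesmosomes of epithelia, rose to 25.2 ± 2.51 CPM in KO, against 8.44 ± 1.53 CPM in WT, and Itga1, whose integrin binds collagens and laminins, rose by 1.95 on the log2 scale. Dag1, dystroglycan, which binds the end of alpha chains, averaged 325 ± 3.81 CPM in KO and 239 ± 12.2 CPM in WT (log2 fold change 0.37). Bcam, a receptor for the Lama5 chain, was too low to test. Dag1 and Bcam were named after their values were seen.

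Basement membrane proteins that lie beside laminins, such as nidogens and collagen IV chains, also went both ways. Of 12 basement membrane partners, 9 were tested. Of these 4 were higher, 3 were lower and 2 were not called, and their log2 fold changes had a median of 0.15. The shares over all tested genes were 37.7% higher and 37.5% lower. Nid1, nidogen, which binds the Lamc1 chain directly, averaged 692 ± 7.53 CPM in KO and 312 ± 12.5 CPM in WT (SD, n = 3), a change of 1.07 on the log2 scale (SE 0.049, adjusted p = 1.7e-08 in edgeR). Col18a1 and Col4a5, both basement membrane collagen chains, rose by 2.10 and 1.70 on the log2 scale. Col4a6 averaged 0.841 ± 0.189 CPM in KO and 2.71 ± 0.069 CPM in WT, so these neighbouring collagen IV chains of the X chromosome changed in opposite directions. Nid2 (0.15) and Col4a1 (0.00) were not called and were named after their values were seen.

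Netrins are secreted guidance proteins that share the N-terminal domain of laminins. Of 6 genes 3 were tested, 2 of them higher and 1 not called, against 37.7% called higher among all tested genes. Their median was 1.29 on the log2 scale. Ntn1 rose to 70.9 ± 5.14 CPM in KO, against 26.1 ± 0.928 CPM in WT (SD, n = 3), and Ntn3 rose by 1.30 on the log2 scale. Ntn4, which binds the gamma chain and can break up laminin networks, averaged 8.51 ± 0.203 CPM in KO and 7.23 ± 0.617 CPM in WT and was not called (log2 fold change 0.16, edgeR adjusted p = 0.16). Scaled by library totals alone, Ntn4 was called higher (0.24, edgeR adjusted p = 0.048).

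The dystrophin complex ties dystroglycan to actin inside the cell. Of its 13 genes 9 were tested, of which 5 rose and 4 were not called. Among all tested genes 37.7% were called higher. The median over the 9 was 0.86 on the log2 scale. Dtna, dystrobrevin, averaged 42.1 ± 2.00 CPM in KO and 9.86 ± 0.268 CPM in WT (SD, n = 3). Sspn, sarcospan, Sntb2, a syntrophin, and Sgce, a sarcoglycan, rose by 1.97, 1.75 and 1.60 on the log2 scale. Of 3 proteases that trim laminin chains 2 were tested, 1 higher and 1 lower in KO. Bmp1 rose to 94.9 ± 3.94 CPM in KO, against 35.3 ± 3.05 CPM in WT. Its relative Tll1 had 0, 2 and 3 reads in KO and 34, 41 and 44 in WT, a change of −4.66 on the log2 scale (SE 0.445, adjusted p = 4.2e-06 in edgeR) that was −5.36 without KO replicate 3.

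**Figure D5:**
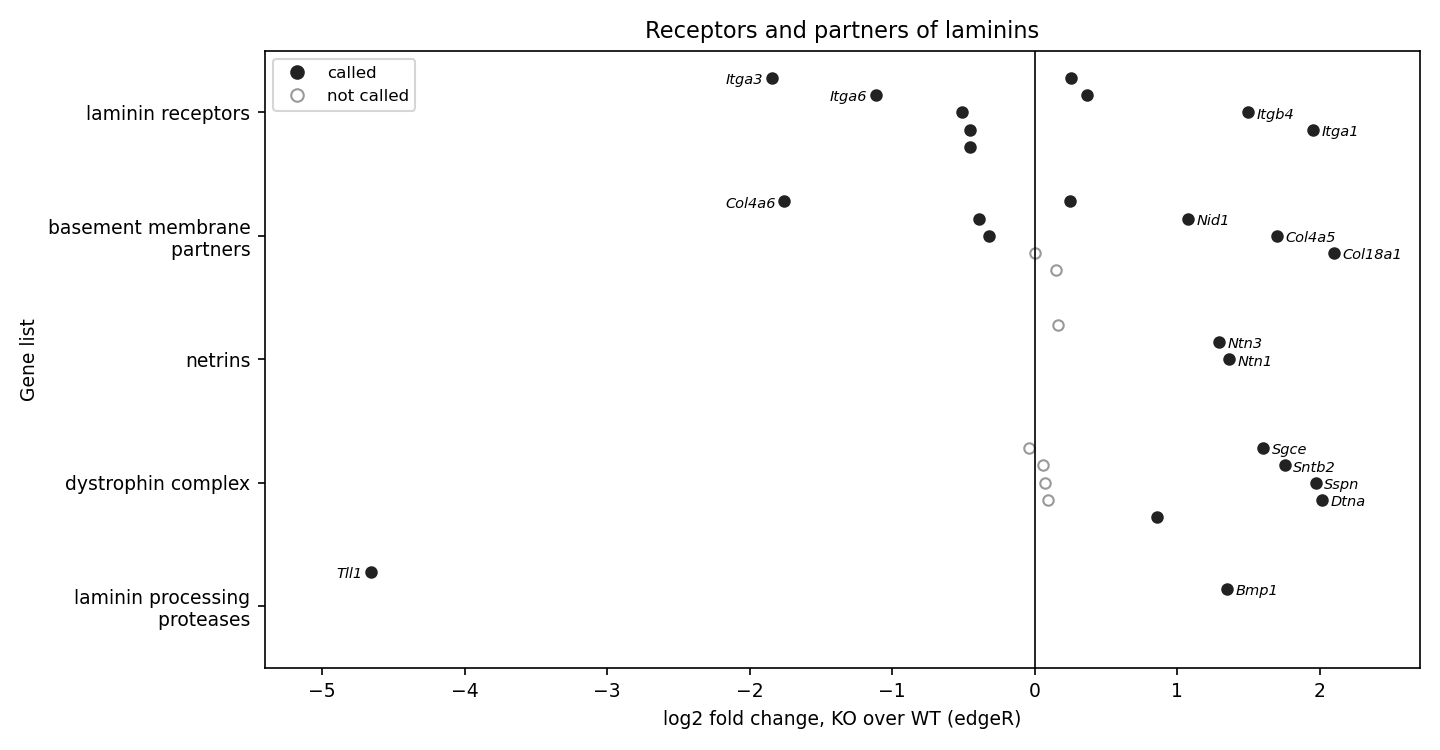
Log2 fold change of KO over WT for the tested genes of 5 lists of laminin receptors and partners, 1 point per gene; filled points were called, open points were not, and the named genes are those with the smallest p in each list. Receptors lie on both sides of 0, from −1.84 for Itga3 to 1.95 for Itga1, and the called dystrophin complex genes all lie above 0.

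The neighbours of the alpha chain genes on the chromosome did not share the size of their changes. On either side of Lama4 the nearest tested protein-coding genes were Fam229b, 8.62 kb away, and Marcks, 1827 kb away, with log2 fold changes of 1.14 and 1.30, against 4.81 for Lama4. Next to Lama2, Ptprk fell (−1.15) and Arhgap18 was not called (−0.24, edgeR adjusted p = 0.069). Both neighbours of Lama5, Adrm1 at 0.087 kb and Rps21, fell (−0.77 and −0.45) while Lama5 rose. Next to the beta and gamma chains, Dld beside Lamb1 fell (−0.46), Usp19 beside Lamb2 rose (0.21) and Dhx9 beside Lamc1 fell (−0.83), and Fam110c (−0.34) and Ccdc71 (−0.12) were not called. Usp19 was not called without WT replicate 1 (0.13, edgeR adjusted p = 0.087) or without KO replicate 3 (0.16, edgeR adjusted p = 0.066), and without KO replicate 1 Arhgap18 (−0.37) and Fam110c (−0.51) were called lower. With all libraries and no low-count filter Arhgap18 was also called lower (−0.25, edgeR adjusted p = 0.020). The untested chains had Ankrd29 (1.60) and Ttc39c (1.51), both higher, beside Lama3, and A130010J15Rik (−0.15, not called) and Plxna2 (1.03, higher) beside Lamb3.

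For each tested chain the genes with the most similar pattern were found by the distance between log2 CPM profiles over the 6 libraries, each centred on its own mean. Nearest to Lama4 were Ptn, which encodes pleiotrophin, with 797 ± 58.9 CPM in KO and 30.1 ± 2.15 CPM in WT (SD, n = 3; distance 0.204), and Clec14a, which encodes an endothelial surface lectin, with 2.29 ± 0.111 CPM in KO and 0 counts in all WT libraries (distance 0.208). Nearest to Lama2 were the gene model Gm42517 (0.201), which is under 1 CPM in both groups, and Lhpp (0.370), which averaged 0.663 CPM in KO and 4.36 CPM in WT. Nearest to Lama5 were Rem1 (0.499) and Hsd17b14 (0.521). The smaller distances of Lamb1 to Tjap1 (0.041) and Osbpl3 (0.051), of Lamb2 to Numa1 (0.063) and Tmem63a (0.069) and of Lamc1 to Selenon (0.052) and Cnksr3 (0.056) go with the smaller changes of those chains. Cnksr3, higher in KO by 0.26 on the log2 scale, was not called without WT replicate 1 (0.20, edgeR adjusted p = 0.055). With 2 groups such a distance mostly measures the size of the group difference in log2 CPM. The prior count of 2 used there shrinks the differences of genes with few reads. Clec14a and Gm42517 came out near although their edgeR log2 fold changes were 8.83 and −4.93, against 4.81 for Lama4 and −2.79 for Lama2.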

How the data were processed

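The authors deposited raw read counts per Ensembl gene, 1 file per library. Per the submitters' processing notes, reads were handled with STAR 2.7.10b and the build was GRCm38; for the counting program, its gene models, strand setting and handling of multi-mapping reads, the sources used here name nothing. If strand was ignored, reads of opposite-strand genes are included.

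Symbols, positions and exonic lengths came from GENCODE M21, in which 28230 of 28293 identifiers were found. CPM and RPKM use the summed counts of a library. The main test set KO against WT in edgeR 4.0.16 (R 4.3.3; TMM, filterByExpr, quasi-likelihood test, Benjamini-Hochberg adjustment over all tested genes), a procedure that was tested on simulated counts with 200 changed genes. In that simulation 200 genes changed, against 75.1% of the 15081 tested genes called here, so it does not cover changes this widespread. Shares and ratios were compared by exact two-sided permutation tests over libraries.

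Alternatives were scaling by upper quartile, by DESeq2 size factors or by library totals alone, a filter of 1 CPM in 3 libraries or none, limma-voom (limma 3.58.1), DESeq2 1.42.0 with its Wald test, the replicate number as a block, a test against a fold of 1.5, another gene length, other RPKM levels and leaving out each library. Figures were drawn with matplotlib 3.10.9. The members and lists were chosen with earlier results of these data known. Named are all members, Lamc3, Tmpo, up to 4 genes per list with the smallest p, the nearest genes by position and the 2 most similar genes per tested chain by log2 CPM with a prior count of 2; genes named beyond this are marked in the text or are cell type markers, named after their values were seen, and some results are not reported here. Lists give counts and medians, with no test of the list.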

Additional observations from a re-analysis of the deposited data

How the results depend on the processing

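Lama2, Lama4, Lama5 and Lamb2 kept their direction and their call in all 15 alternatives run for each. Lamb1 and Lamc1 did so in 14, and against a fold of 1.5 neither was called (edgeR adjusted p = 1 for both), which left 1 chain called lower and reduced the calls over all genes to 3094 higher and 2527 lower, since that test asks for more than a difference. Over 57 genes refitted under each setting, these chains included, that test ended 13 calls, other settings ended 3 and gave 5 new ones, and Lamc3, never called, ranged from −0.78 without KO replicate 1 to 0.030, the opposite sign, without KO replicate 3. Scaling by library totals alone moved the median log2 fold change of all tested genes to 0.09, and the split of calls to 6181 higher and 5139 lower. With the longest coding transcript as length, Lama4 took 98.2% and Lama5 1.33% of the alpha chain level in KO; Lamb1 took 47.3% in KO and 65.5% in WT, and Lamb2 52.7% in KO and 34.4% in WT, of the beta chain level; the Lamb1 to Lamb2 ratio was 0.899 in KO and 1.91 in WT; and summed alpha chains were 42.8% of Lamc1 in KO and 3.49% in WT. Whether the replicate numbers pair the libraries could not be settled with 3 libraries per group. Same-numbered libraries' deviations from their group means correlated at 0.147, −0.115 and 0.159, and 2 of 6 libraries correlated best with their own number. With the replicate block 5832 genes were called higher and 5865 lower, and the laminin calls did not change, while Arhgap18 was called lower (−0.25, edgeR adjusted p = 0.023). Depth limits Lama3, Lamb3 and the WT level of Lama5, which rest on at most 12 reads in a library.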
